A study of Mus musculus with 12 samples.

Results

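The 36 genes described here carry out or control fatty acid oxidation. They comprise the enzymes that activate, import and oxidise fatty acids in mitochondria and peroxisomes, the electron carriers that take up the released electrons, and members of PPAR control. The genes were listed by function, and every one of the 36 symbols was found among the 40840 genes listed for each library. Total RNA was sequenced from a liver cell fraction labelled hepatic macrophages, taken from adult male C57BL/6 mice fed normal chow diet (NCD) or high-fat diet (HFD). The 4 groups, with 3 libraries each, were wild-type mice on chow (WT NCD), wild-type mice on high-fat diet (WT HFD), and mice labelled Casp11-/- on each of those diets (Casp11-/- NCD and Casp11-/- HFD). Casp11-/- mice lack caspase-11, the mouse protease that senses lipopolysaccharide in the cytosol, in every cell of the animal. The fraction was made by digesting the perfused liver, lysing red cells and removing hepatocytes on a Percoll solution, with no sort for a cell type before RNA was taken. The labels number the mice and state no pairing between groups, and p-values refer to the spread between the libraries of a group.

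Fatty acids are activated to acyl-CoA by long-chain acyl-CoA synthetases, carried into mitochondria by the carnitine shuttle, and shortened by repeated rounds of dehydrogenation, hydration, a further dehydrogenation and thiolysis. Very long and branched chains are first shortened in peroxisomes. PPARα and PPARδ are nuclear receptors that bind fatty acids and, as partners of RXR, switch on many of these genes. The pathway is best known in hepatocytes, which depend on it during fasting, and macrophages also use it when they take up lipid.

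Some of the genes come in pairs that encode near-identical enzymes, and their coding sequences are shown first because Acot2 and Acaa1a had the 2 largest negative diet differences among the members in each fit reported below. Acaa1a and Acaa1b, the peroxisomal thiolases of chromosome 9, lie 182583 bases apart, and their coding sequences of 1272 bases each were 96.5% identical. Of all stretches of 75 bases, the read length, in the coding sequence of either gene, 29.9% occurred letter for letter in the other. Acot1 and Acot2 on chromosome 12, the cytosolic and mitochondrial acyl-CoA thioesterases, lie 15617 bases apart and were 95.6% identical over 1236 aligned coding bases. Of such stretches in the coding sequence of Acot1, 36.7% occurred in that of Acot2. The lines below give the first 75 coding bases of the thiolases and an aligned stretch of the thioesterases (coding bases 5 to 79 of Acot1 and 128 to 202 of Acot2) from the GRCm38 transcripts, with the bases that differ in capitals.
Acaa1a: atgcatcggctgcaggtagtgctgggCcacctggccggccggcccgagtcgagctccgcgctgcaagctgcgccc
Acaa1b: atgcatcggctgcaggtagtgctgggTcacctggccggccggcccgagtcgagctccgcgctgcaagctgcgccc
Acot1: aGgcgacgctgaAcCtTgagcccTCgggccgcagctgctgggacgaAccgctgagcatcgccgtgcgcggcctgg
Acot2: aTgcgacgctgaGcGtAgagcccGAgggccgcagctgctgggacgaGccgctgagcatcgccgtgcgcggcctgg
The thiolase stretch holds 1 differing base and the thioesterase stretch 7, while a read from a shared stretch holds none, so the values of these 4 genes are uncertain to the extent that reads could be split between the partners. Of the other genes, 3 shared many 75-base stretches of their transcripts with other gene models, namely Cpt1b (79.4%), Etfb (52.5%) and Hadhb (51.0%).

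PPAR and RXR bind DNA at a direct repeat of AGGTCA with 1 base between the copies. RefSeq promoter windows of GRCm38.p6, from 250 bases before to 50 bases after the annotated start, were matched for 31 of the 36 genes, and both strands were searched for this repeat with at most 2 differing letters. It was found in 4 of the 31 windows (12.9%: Echs1, Etfa, Slc25a20 and Acox2) and in 1190 of 27025 windows of all genes (4.40%). The Echs1 and Etfa matches, the ones that lie upstream of the start, are shown in the direction of each gene, with the 12 letters aligned to the repeat in capitals, 2 of which differ from it in each gene. Echs1, the enoyl-CoA hydratase, has its match at position -83 from the start, within chr7:140116467-140116529 on the minus strand. Etfa, a subunit of the electron transfer flavoprotein, has its match at position -77 on the opposite strand, within chr9:55512283-55512345 (gene on the minus strand).
Echs1: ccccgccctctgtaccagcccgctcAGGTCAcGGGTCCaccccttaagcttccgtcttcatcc
Etfa: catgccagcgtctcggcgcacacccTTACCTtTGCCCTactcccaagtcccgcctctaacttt
The windows of Pdk4, Cpt1a and Ehhadh came no closer than 4 differing letters. The members' windows were also richer in CpG than those of all genes, with a median of 15 against 7 CpG and a GC content of 60.7% against 52.7%. These counts describe the letters of the windows and say nothing of binding.

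The values are transcript levels in TPM, normalised for transcript length and library total, deposited with a floor of 1.01 TPM. A value at the floor does not tell an absent transcript from a low one. WT NCD replicate 3 stood apart from the other libraries: 39677 genes were above the floor in it against 12940 to 18775 in the others, and its log2 values correlated negatively with those of every other library (r from -0.27 to -0.07). Counts of called genes and the differences of the leading genes are therefore given with all 12 libraries and without that library. Casp4, the gene for caspase-11, was at 5.60 to 15.6 TPM in the 6 WT libraries and at 2.56 to 15.2 TPM in the 6 libraries labelled Casp11-/-, and in 2 of these, Casp11-/- NCD replicate 3 (15.2 TPM) and Casp11-/- HFD replicate 2 (8.68 TPM), it lay within the WT range. The column header of the second of these also abbreviates the genotype in another way than those of its group. Protein-coding genes held between 14.5% and 42.4% of the TPM of a library, so that a gene's TPM also depends on how much noncoding RNA was sequenced. Their share was 22.3% to 42.4% in the 5 chow libraries other than WT NCD replicate 3 and 15.7% to 25.2% in the 6 HFD libraries. For this reason the diet differences are also given after the protein-coding genes were rescaled to a common total, without WT NCD replicate 3. Hepatocyte transcripts were abundant in a fraction labelled as macrophages: Alb, the gene for serum albumin, was at 4445 to 18318 TPM in 11 libraries, while Clec4f, a lectin of Kupffer cells, was at 4.01 to 12.1 TPM in 5 chow libraries and at 24.8 to 98.3 TPM in the 6 HFD libraries. A lower TPM of a gene in such a mixture cannot be told apart from fewer cells that carry it.

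The levels of the 36 genes spanned a wide range across the 11 libraries other than WT NCD replicate 3. In the order of medians the genes grouped as peroxisomal oxidation ran from rank 8 (Acaa1b) to rank 30 (Acox2). Acaa2, the mitochondrial thiolase, had the highest median (37.6 TPM), followed by the acyl-CoA synthetase Acsl5 (32.2 TPM), the trifunctional protein subunit Hadha (29.7 TPM), the carnitine palmitoyltransferase Cpt1a (26.2 TPM) and the long-chain dehydrogenase Acadl (24.2 TPM). Neighbours in this order had overlapping ranges over the libraries. Acsl3 (1.85 TPM), Pdk4 (2.74 TPM), Acot2 (3.05 TPM), Acot1 (3.24 TPM) and Acox2 (3.46 TPM) had the lowest medians among the genes tested. Ppargc1a, the coactivator that drives mitochondrial gene programmes, was at the floor in all 12 libraries, and Cpt1b, the muscle form of carnitine palmitoyltransferase, was at the floor in 11 and at 4.60 TPM in WT NCD replicate 3. These 2 genes did not pass the filter on low values, which left 34 of 36 for the tests. In WT NCD replicate 3 the median of the 36 genes was 4.93 TPM, lower than the 7.48 to 14.4 TPM of the other libraries.

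**Figure D1:**
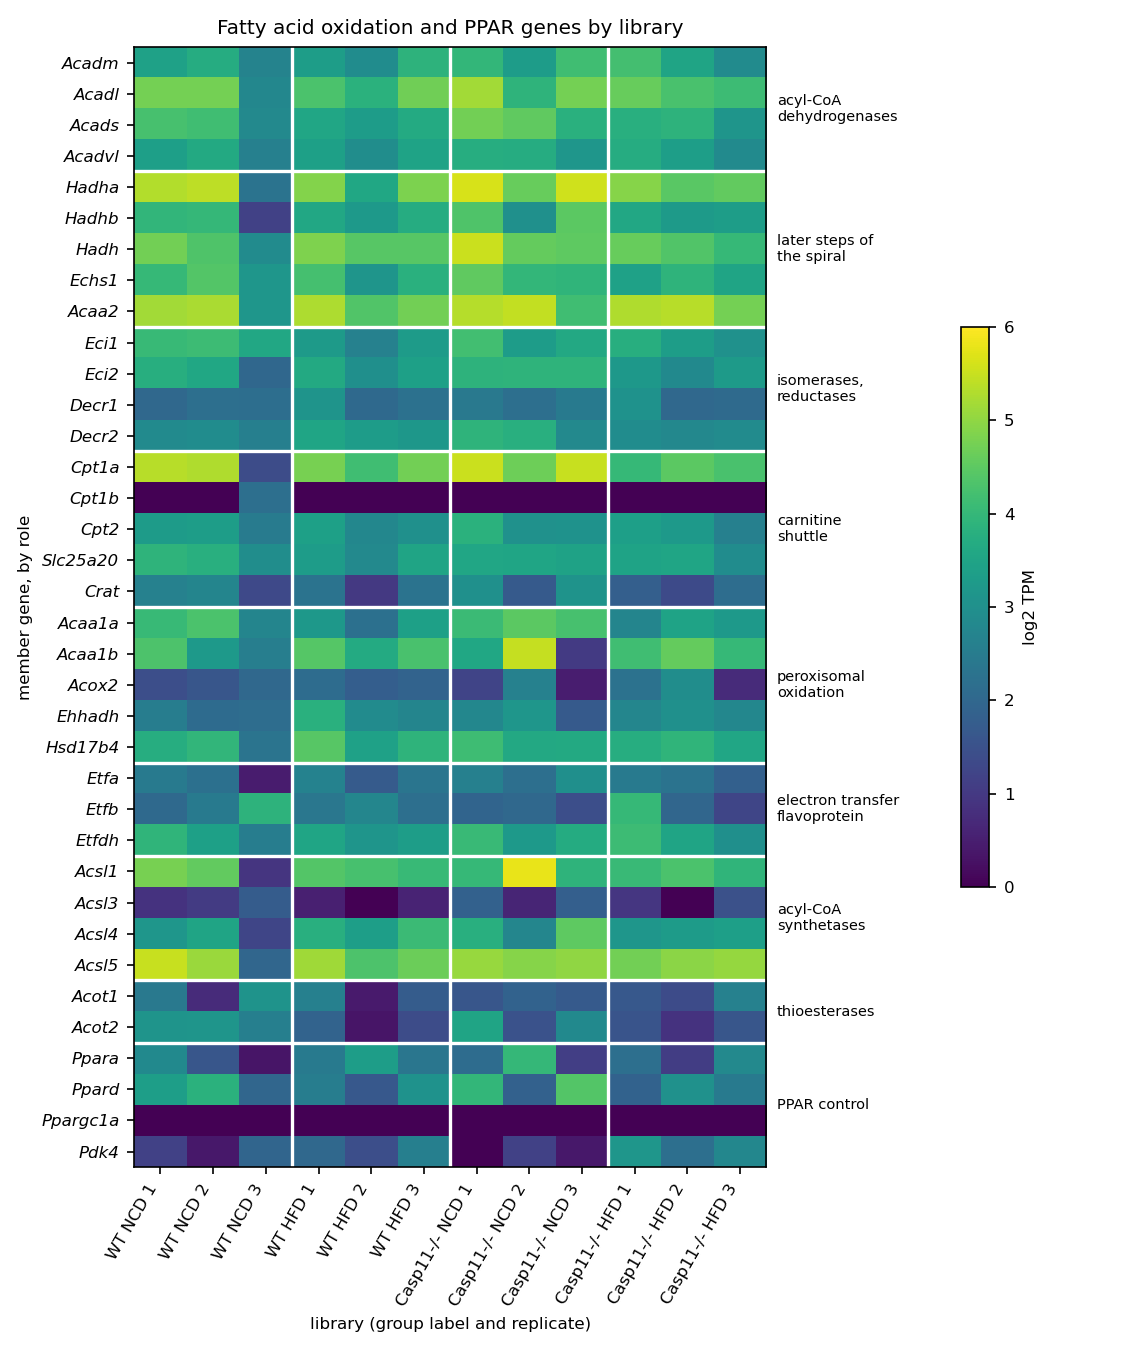
Heat map of log2 TPM (colour scale from 0 to 6) for the 36 genes in rows, grouped by role, and the 12 libraries in columns, grouped by genotype label and diet. Acaa2, Acsl5, Hadha and Cpt1a have the highest medians over the other 11 libraries (26.2 to 37.6 TPM), and Ppargc1a lies at the floor of 1.01 TPM in every library.

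The first question was whether high-fat feeding changed these genes. With all 12 libraries, none of the 34 tested genes passed an adjusted p of 0.05 in the diet comparison averaged over both genotype labels (limma on log2(TPM + 1), Benjamini-Hochberg over all genes), in which 0.554% of 19498 genes passed. None passed in WT mice, where 0.113% of all genes did, nor in mice labelled Casp11-/-, where 0% did. At an unadjusted p under 0.05 the averaged comparison counted 3 of the 34 genes (8.82%), below the 16.8% of all genes. The corresponding counts were 1 of 34 (2.94%) against 6.96% of all genes in WT mice and 2 of 34 (5.88%) against 8.48% in mice labelled Casp11-/-. The genes of fatty acid oxidation were thus called no more often than genes in general.

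Without WT NCD replicate 3, 3 of the 34 genes passed in the averaged comparison (8.82%), where 18.3% of all genes passed. Pdk4 rose, and Acot2 and Acaa1a fell. None of the 34 passed within WT mice (2.18% of all genes) or within mice labelled Casp11-/- (1.1% of all genes). After rescaling of the protein-coding genes, again without that library, 3 of 34 rose (8.82%, against 13.6% of the 12365 genes tested), namely Pdk4, Acsl4 and Ehhadh. Only protein-coding genes were tested on the rescaled values, so there all genes means the protein-coding genes tested. Within mice labelled Casp11-/-, Pdk4 alone passed on the rescaled values, where 3.52% of those genes did. None of the 34 passed within WT mice on that scale (0.817% of those genes). Pdk4 was the gene that both ways of leaving out WT NCD replicate 3 had in common.

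The direction of the group as a whole depended on the scale. With 12 libraries, 14 of the 34 genes had higher and 20 lower mean log2 values on HFD, and their median log2 difference was -0.06 beside -0.61 for all genes tested. Without WT NCD replicate 3, 10 were higher and 24 lower, with a median of -0.23 beside -0.39. On the rescaled values 27 were higher and 7 lower, with a median of 0.36 beside -0.05 for the protein-coding genes tested. In each of these fits of the averaged comparison the median of the 34 genes lay above that of all genes, while its sign changed. Within each genotype label it also lay above, except in WT mice without WT NCD replicate 3 (-0.30 beside -0.27). Compared with the 12-library fit, 13 of the 34 genes changed sign after rescaling and 6 after WT NCD replicate 3 was left out. Rescaling multiplies all genes of a library alike, and by more in most HFD libraries, whose protein-coding share was lower. It also moved the floor. Ppargc1a, at the floor in every library, came to 0.57 to 1.08 in the chow libraries other than WT NCD replicate 3. In the HFD libraries it came to 0.96 to 1.54. Rescaled differences of genes near the floor, such as Pdk4, include such a shift.

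**Figure D2:**
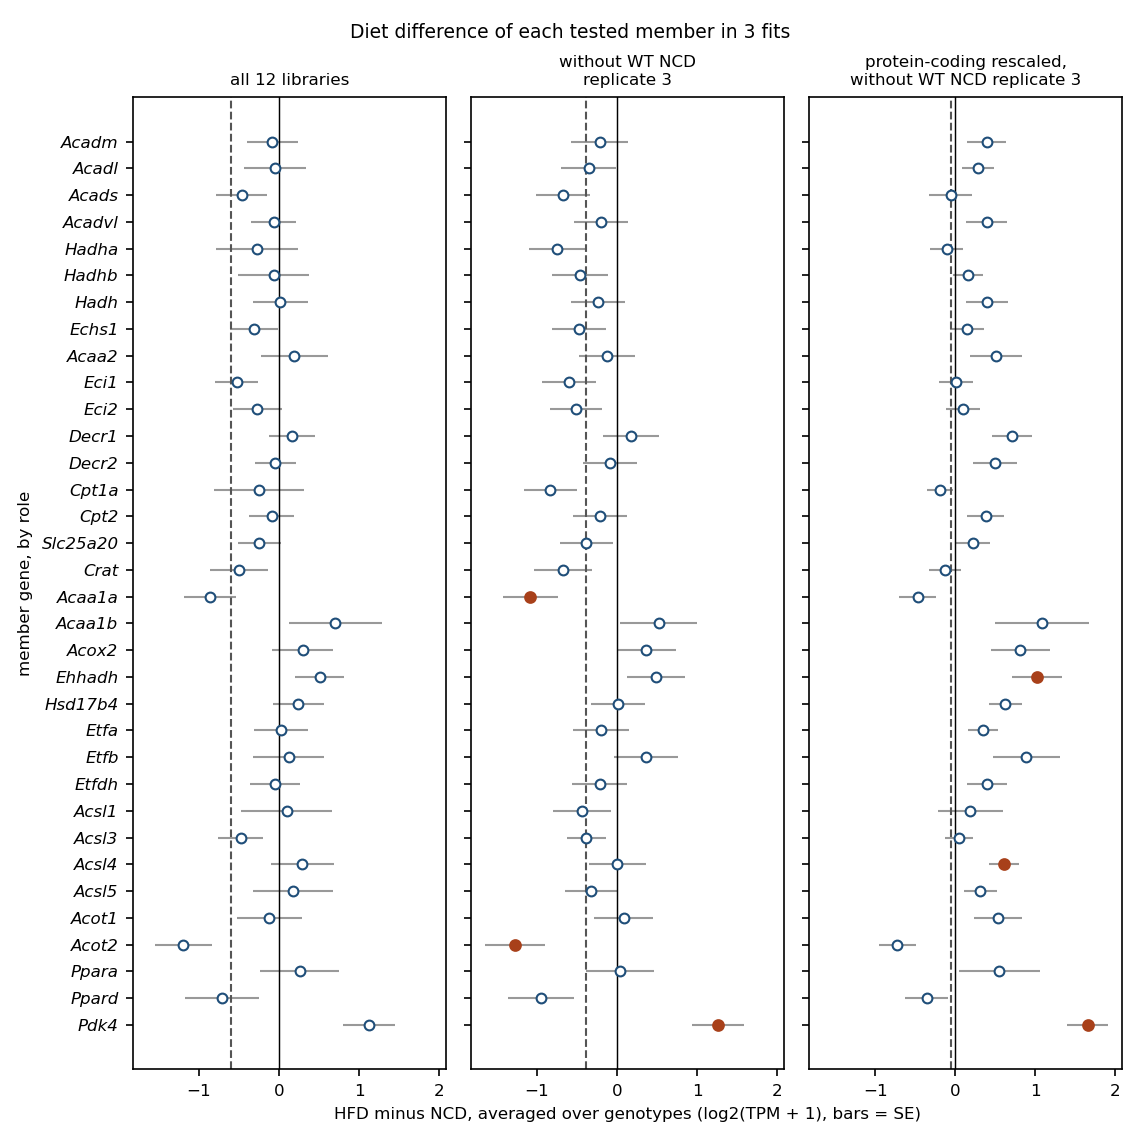
Difference of mean log2(TPM + 1) between HFD and NCD, averaged over genotype labels, for the 34 tested genes in the fit of 12 libraries, the fit without WT NCD replicate 3 and the rescaled fit without it. Bars are standard errors and filled points have an adjusted p under 0.05. The dashed line is the median of all genes tested (-0.61, -0.39 and, for protein-coding genes alone, -0.05). Pdk4 lies furthest to the right in each fit.

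Pdk4 encodes a kinase that shuts off pyruvate dehydrogenase and so turns cells from glucose towards fatty acid oxidation, and it is a classical PPAR target. It lies on chromosome 6 (5483351 to 5496309, minus strand, GRCm38). Pdk4 was at 2.25, 1.30 and 3.85 TPM in WT NCD, at 4.09, 2.74 and 6.05 TPM in WT HFD, at 1.01, 2.23 and 1.31 TPM in Casp11-/- NCD and at 8.84, 4.55 and 6.86 TPM in Casp11-/- HFD. Apart from WT NCD replicate 3, all 6 HFD libraries lay above all 5 chow libraries. Its averaged log2 difference was 1.12 ± 0.32 (SE; adjusted p = 0.183) with 12 libraries, 1.26 ± 0.32 (adjusted p = 0.0156) without WT NCD replicate 3, and 1.65 ± 0.25 (adjusted p = 0.0036) on the rescaled values. Within mice labelled Casp11-/- the rescaled difference was 1.94 ± 0.34 (adjusted p = 0.0206), and within WT mice it was 1.37 ± 0.38 (adjusted p = 0.108). The difference between these 2 responses did not pass the test (limma interaction on the rescaled values 0.58 ± 0.50, unadjusted p = 0.273, and 0.98 ± 0.64 with 12 libraries, unadjusted p = 0.154).

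The receptors themselves were not called. Ppara, the gene for PPARα on chromosome 15, was at 7.22, 3.03 and 1.28 TPM in WT NCD, at 5.56, 10.1 and 5.15 TPM in WT HFD, at 4.32, 15.9 and 2.17 TPM in Casp11-/- NCD and at 4.59, 2.12 and 7.11 TPM in Casp11-/- HFD. The groups overlapped, and the highest value, in Casp11-/- NCD replicate 2, came from a library with 23228 TPM in 14 hepatocyte markers, against 8544 and 8189 TPM in the other 2 libraries of its group. WT NCD replicate 1 (29495 TPM of markers, 7.22 TPM of Ppara) and Casp11-/- HFD replicate 3 (24564 and 7.11 TPM) held the highest marker sum and the highest Ppara of their groups. Casp11-/- HFD replicate 2 held 20867 TPM of markers and 2.12 TPM of Ppara. In WT HFD the highest Ppara was in replicate 2 (13762 TPM of markers), and the highest marker sum was in replicate 1 (22672 TPM). Whether that share of hepatocyte RNA sets the Ppara value was not tested. Ppard, the gene for PPARδ on chromosome 17, was at 10.4, 14.3 and 3.97 TPM in WT NCD, at 5.87, 3.15 and 8.33 TPM in WT HFD, at 15.8, 3.64 and 20.9 TPM in Casp11-/- NCD and at 3.70, 8.18 and 5.48 TPM in Casp11-/- HFD. Of the 6 chow libraries, 4 lay above every HFD library, and the exceptions were WT NCD replicate 3 and Casp11-/- NCD replicate 2. The averaged log2 difference of Ppard was -0.72 ± 0.46 (adjusted p = 0.459), -0.95 ± 0.41 (adjusted p = 0.0963) without WT NCD replicate 3 and -0.35 ± 0.27 (adjusted p = 0.373) on the rescaled values.

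**Figure D3:**
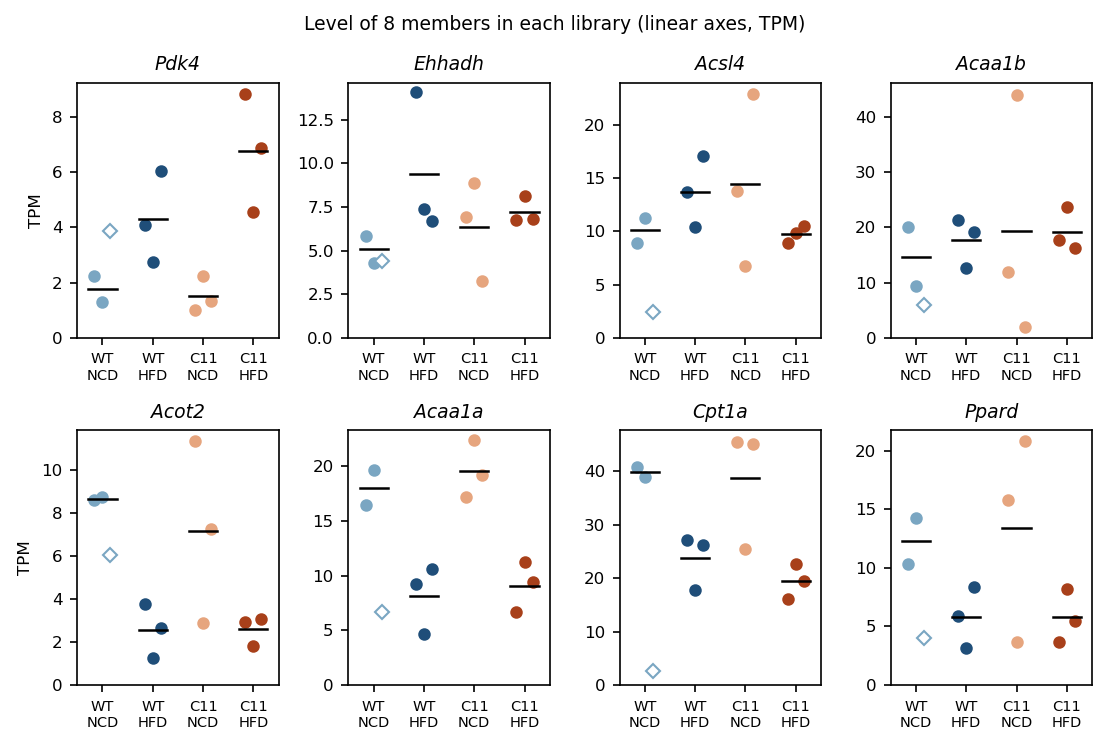
TPM per library in the 4 groups (C11, Casp11-/-) for 8 of the genes on linear axes, with points for libraries, an open diamond for WT NCD replicate 3 and a line at the group mean without it. For Pdk4 the 6 HFD libraries (2.74 to 8.84 TPM) lie above the other 5 chow libraries (1.01 to 2.25 TPM), and for Acaa1a the 6 HFD libraries (4.64 to 11.2 TPM) lie below them (16.4 to 22.4 TPM).

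Of the 5 genes grouped as peroxisomal oxidation, 4 had higher mean log2 values on HFD in each of the 3 fits, and the exception was Acaa1a. Decr2, a peroxisomal reductase, and Eci2 are grouped with the isomerases and reductases below and are not in this count. Their averaged log2 differences were -0.04 and -0.27 with 12 libraries, also negative without WT NCD replicate 3, and positive on the rescaled values. Acaa1a, a peroxisomal thiolase, was at 16.4, 19.6 and 6.69 TPM in WT NCD, at 9.23, 4.64 and 10.6 TPM in WT HFD, at 17.2, 22.4 and 19.2 TPM in Casp11-/- NCD and at 6.63, 11.2 and 9.44 TPM in Casp11-/- HFD. The HFD libraries lay below the chow libraries except WT NCD replicate 3. Its averaged log2 difference was -0.86 ± 0.33 (adjusted p = 0.233) with 12 libraries, -1.08 ± 0.34 (adjusted p = 0.0339) without WT NCD replicate 3 and -0.47 ± 0.23 (adjusted p = 0.164) on the rescaled values. The fall of Acaa1a thus passed the test on the TPM scale only without WT NCD replicate 3, and not after rescaling. Its partner Acaa1b was at 20.0, 9.40 and 5.91 TPM in WT NCD, at 21.3, 12.7 and 19.3 TPM in WT HFD, at 11.9, 44.1 and 2.02 TPM in Casp11-/- NCD and at 17.7, 23.8 and 16.2 TPM in Casp11-/- HFD. Acaa1b spanned the range of every other group within Casp11-/- NCD alone, with its highest value again in replicate 2, and its difference was not called (0.52 ± 0.48 without WT NCD replicate 3, adjusted p = 0.405, and 1.09 ± 0.59 on the rescaled values, adjusted p = 0.208). With 29.9% of 75-base coding stretches in common, the opposite signs of these 2 thiolases rest on reads that could be told apart only in part.

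Ehhadh, the bifunctional enzyme of the peroxisomal pathway and a PPARα target in liver, was at 5.84, 4.29 and 4.41 TPM in WT NCD, at 14.1, 7.41 and 6.69 TPM in WT HFD, at 6.90, 8.89 and 3.23 TPM in Casp11-/- NCD and at 6.73, 8.11 and 6.82 TPM in Casp11-/- HFD. Within WT mice the diets did not overlap, whereas in mice labelled Casp11-/- they did. The averaged log2 difference was 0.51 ± 0.31 (adjusted p = 0.427) with 12 libraries and 0.48 ± 0.36 (adjusted p = 0.303) without WT NCD replicate 3. It passed after rescaling (1.02 ± 0.31, adjusted p = 0.0472). Acox2, the branched-chain acyl-CoA oxidase, and Hsd17b4, the multifunctional enzyme of branched-chain oxidation, had rescaled differences of 0.82 and 0.63 that did not pass (adjusted p = 0.145 and 0.057).

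The thioesterases release free fatty acids and CoA from acyl-CoA. Acot2, the mitochondrial form, was at 8.60, 8.76 and 6.05 TPM in WT NCD, at 3.76, 1.26 and 2.64 TPM in WT HFD, at 11.3, 2.87 and 7.25 TPM in Casp11-/- NCD and at 2.95, 1.83 and 3.05 TPM in Casp11-/- HFD. In WT mice all 3 HFD libraries lay below all 3 chow libraries, WT NCD replicate 3 included. In mice labelled Casp11-/-, NCD replicate 2 lay within the HFD range. Its averaged log2 difference was -1.20 ± 0.36 (adjusted p = 0.188) with 12 libraries, -1.28 ± 0.37 (adjusted p = 0.0256) without WT NCD replicate 3 and -0.72 ± 0.23 (adjusted p = 0.054) on the rescaled values. Acot1, the cytosolic form, ranged from 1.35 to 6.25 TPM over the 11 libraries with overlapping diets, and its log2 difference was 0.08 ± 0.36 (adjusted p = 0.859) without WT NCD replicate 3.

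In the carnitine shuttle, none of the 4 tested genes was called. Cpt1a, whose product in the outer mitochondrial membrane sets the pace of fatty acid entry, was at 40.7, 38.9 and 2.64 TPM in WT NCD, at 27.2, 17.8 and 26.2 TPM in WT HFD, at 45.5, 25.4 and 45.2 TPM in Casp11-/- NCD and at 16.1, 22.6 and 19.5 TPM in Casp11-/- HFD. WT NCD replicate 3 held less than every other library. The averaged log2 difference was -0.25 ± 0.56 (adjusted p = 0.75) with 12 libraries and -0.83 ± 0.33 (adjusted p = 0.0745) without that library. On the rescaled scale Cpt1a lay at 20.1 to 29.7 in the 11 libraries, and its difference was -0.19 ± 0.16 (adjusted p = 0.435). Slc25a20, the carnitine carrier, Cpt2, the enzyme of the inner membrane, and Crat, which makes acetylcarnitine, had averaged log2 differences of -0.25, -0.09 and -0.50 with 12 libraries, -0.38, -0.21 and -0.68 without WT NCD replicate 3, and 0.22, 0.38 and -0.13 on the rescaled values, none of which passed.

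The enzymes of the mitochondrial spiral were not called in any fit. The 4 acyl-CoA dehydrogenases (Acadm, Acadl, Acads and Acadvl, which differ in the chain length they accept) had a median log2 difference of -0.08 with 12 libraries, -0.29 without WT NCD replicate 3 and 0.34 on the rescaled values. The 5 genes of the later steps (Hadha, Hadhb, Hadh, Echs1 and Acaa2) had medians of -0.07, -0.46 and 0.16 in the same order. Both groups therefore lay below 0 on the TPM scale and above 0 after rescaling. Acads, the short-chain dehydrogenase, was at 19.0, 17.8 and 7.12 TPM in WT NCD, at 11.7, 9.92 and 12.8 TPM in WT HFD, at 26.4, 23.2 and 14.1 TPM in Casp11-/- NCD and at 13.8, 14.7 and 8.78 TPM in Casp11-/- HFD. Its averaged log2 difference without WT NCD replicate 3 was -0.68 (adjusted p = 0.142), and on the rescaled values it was -0.06 (adjusted p = 0.904). Hadh, the short-chain hydroxyacyl-CoA dehydrogenase, was at 26.5, 20.4 and 7.44 TPM in WT NCD, at 28.6, 21.8 and 21.9 TPM in WT HFD, at 45.9, 23.8 and 22.8 TPM in Casp11-/- NCD and at 24.5, 20.7 and 16.3 TPM in Casp11-/- HFD. Its groups overlapped, and the highest value was in Casp11-/- NCD replicate 1.

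The 4 isomerases and reductases prepare unsaturated fatty acids for the spiral. Eci1 was at 16.4, 17.2 and 12.2 TPM in WT NCD, at 9.68, 6.21 and 9.87 TPM in WT HFD, at 18.1, 9.91 and 12.2 TPM in Casp11-/- NCD and at 13.5, 10.2 and 8.24 TPM in Casp11-/- HFD. The diets did not overlap in WT mice and overlapped in mice labelled Casp11-/-. Eci2 was at 13.5, 11.9 and 4.03 TPM in WT NCD, at 12.4, 7.90 and 10.6 TPM in WT HFD, at 14.6, 15.0 and 15.0 TPM in Casp11-/- NCD and at 9.11, 7.20 and 9.64 TPM in Casp11-/- HFD, with the reverse arrangement: the diets did not overlap in mice labelled Casp11-/-. Neither was called, with averaged log2 differences of -0.53 and -0.27 with 12 libraries, -0.60 and -0.51 without WT NCD replicate 3, and 0.0101 and 0.0977 on the rescaled values. Decr1, the mitochondrial dienoyl-CoA reductase, had a rescaled difference of 0.71 (adjusted p = 0.068), and Decr2, its peroxisomal counterpart, one of 0.49 (adjusted p = 0.225).

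Among the synthetases, Acsl4, which prefers arachidonic acid, was at 8.89, 11.3 and 2.40 TPM in WT NCD, at 13.7, 10.4 and 17.0 TPM in WT HFD, at 13.8, 6.71 and 22.9 TPM in Casp11-/- NCD and at 8.91, 9.84 and 10.5 TPM in Casp11-/- HFD. Its averaged log2 difference was 0.29 ± 0.39 with 12 libraries and 0.00 ± 0.36 without WT NCD replicate 3, and it passed after rescaling (0.61 ± 0.19, adjusted p = 0.0465). The call for Acsl4 thus belongs to the rescaled values. Acsl1, the main synthetase of liver, was at 27.2, 23.6 and 1.89 TPM in WT NCD, at 21.0, 19.1 and 16.4 TPM in WT HFD, at 16.3, 55.4 and 14.8 TPM in Casp11-/- NCD and at 16.8, 19.6 and 15.3 TPM in Casp11-/- HFD. Its highest value was in Casp11-/- NCD replicate 2, as for Ppara and Acaa1b, and its difference was not called in any fit. Acsl3, the scarcest synthetase, was at 1.85, 2.07 and 3.37 TPM in WT NCD, at 1.44, 1.01 and 1.52 TPM in WT HFD, at 3.66, 1.53 and 3.51 TPM in Casp11-/- NCD and at 1.94, 1.01 and 2.79 TPM in Casp11-/- HFD, so that the diets overlapped in mice labelled Casp11-/-.

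The electron transfer flavoprotein passes electrons from the dehydrogenases to the respiratory chain. Etfa was at 5.44, 4.67 and 1.37 TPM in WT NCD, at 6.36, 3.32 and 5.03 TPM in WT HFD, at 6.16, 4.56 and 7.97 TPM in Casp11-/- NCD and at 5.59, 4.89 and 3.60 TPM in Casp11-/- HFD, with overlap between all groups. Etfa, Etfb and Etfdh had rescaled differences of 0.35 to 0.89, none of which passed.

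Counted by overlap alone, 2 of the 34 genes (5.88%) separated all 6 HFD from the 5 chow libraries left without WT NCD replicate 3, Pdk4 above and Acaa1a below, and 5.99% of all genes did so. In mice labelled Casp11-/- the diets did not overlap for 5 of 34 genes (14.7%, against 17.2% of all genes), with Pdk4 higher and Echs1, Eci2, Cpt1a and Acaa1a lower on HFD. In WT mice they did not overlap for 5 of 34 (14.7%, against 15.7% of all genes), with Decr2 and Ehhadh higher and Eci1, Acsl3 and Acot2 lower. Against WT NCD replicates 1 and 2 alone, 17 of 34 (50%, against 54.6% of all genes) did not overlap in WT mice, 4 higher and 13 lower, with Pdk4 among the higher and Cpt1a and Acaa1a among the lower. These shares were close to those of all genes.

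The second question was whether the genotype label changed the genes on either diet. None of the 34 genes passed at an adjusted or an unadjusted p of 0.05 between Casp11-/- NCD and WT NCD, where 0% and 1.5% of all genes passed, or between Casp11-/- HFD and WT HFD, where 0% and 0.154% did. On chow the smallest unadjusted p was that of Decr2 (0.106), with 7.37, 7.52 and 6.02 TPM in WT NCD and 14.9, 13.8 and 7.09 TPM in Casp11-/- NCD, a log2 difference of 0.64 ± 0.36. On HFD it was that of Pdk4 (0.244), with a log2 difference of 0.56 ± 0.45. The median log2 difference of the 34 genes on chow was 0.38 beside 0.04 for all genes with 12 libraries, -0.01 beside 0.08 without WT NCD replicate 3, and 0.11 beside 0.15 on the rescaled values. On HFD it was 0.04 beside -0.02 with 12 libraries and 0.01 beside -0.06 on the rescaled values. On the TPM scale the chow median thus moved close to 0 with a single library left out.

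The response to diet was then compared between genotype labels. None of the 34 genes had an interaction that passed the adjusted threshold (0% of all genes) or an unadjusted p under 0.05 (0.79% of all genes) with 12 libraries. The smallest unadjusted p was that of Decr2 (-1.07 ± 0.52, limma, unadjusted p = 0.0632 and adjusted p = 0.78). Decr2 was at 11.5, 9.996 and 9.03 TPM in WT HFD and at 7.57, 6.96 and 7.39 TPM in Casp11-/- HFD. On the rescaled values Acsl4 had an interaction of -0.90 ± 0.37 (adjusted p = 0.881). In these comparisons the limits of the labels apply, since Casp4 was within the WT range in 2 of the 6 libraries labelled Casp11-/-.

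Other genes of the same pathways were examined beside the 36. Of 24 further oxidation enzymes and transporters 21 were tested, and of 16 further PPAR targets and partners 15 were tested. None passed in the averaged diet comparison with 12 libraries. Without WT NCD replicate 3, 4 of the 21 oxidation genes fell and none rose (19.05%, beside the 18.3% of all genes), among them Acox3, a peroxisomal oxidase (-1.36, adjusted p = 0.0228), Mlycd, malonyl-CoA decarboxylase (-0.56, adjusted p = 0.0249), and Acot8, a peroxisomal thioesterase (-1.03, adjusted p = 0.0302). Acox3 and Acot8 also fell on the rescaled values (-0.75 and -0.52, adjusted p = 0.0454 and 0.0451), while Mlycd did not pass there (-0.16, adjusted p = 0.439). Mlycd was at 1.01 to 1.34 TPM in the HFD libraries, at or near the floor. In the chow libraries other than WT NCD replicate 3 it was at 1.73 to 2.23 TPM, so its fall is a small difference of a low gene.

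Acox3 was at 13.98, 16.1 and 1.71 TPM in WT NCD, at 5.58, 4.42 and 8.54 TPM in WT HFD, at 22.4, 7.44 and 31.4 TPM in Casp11-/- NCD and at 3.57, 6.91 and 6.42 TPM in Casp11-/- HFD. The chow libraries that came down to the HFD range of Acox3 were WT NCD replicate 3 and Casp11-/- NCD replicate 2. The same 2 chow libraries were the low ones for Ppard.

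Of the 15 PPAR targets and partners, 2 rose and 2 fell without WT NCD replicate 3 (26.7%, beside the 18.3% of all genes). Cd36, the fatty acid receptor of the cell surface, was at 15.7, 12.5 and 3.28 TPM in WT NCD, at 49.8, 33.8 and 72.2 TPM in WT HFD, at 9.67, 11.01 and 30.6 TPM in Casp11-/- NCD and at 65.2, 36.7 and 106 TPM in Casp11-/- HFD. All 6 HFD libraries were above all 6 chow libraries. The averaged log2 difference of Cd36 was 2.19 ± 0.46 (adjusted p = 0.078) with 12 libraries, 1.88 ± 0.39 (adjusted p = 0.00279) without WT NCD replicate 3 and 2.51 (adjusted p = 0.00119) on the rescaled values, larger than that of any of the 34 genes in each fit.

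Vnn1, a pantetheinase that responds to PPARα, rose by 1.16 ± 0.39 on the log2 scale (adjusted p = 0.0436) without WT NCD replicate 3. It was at 6.55, 1.51 and 5.51 TPM in WT NCD, at 8.94, 5.84 and 7.96 TPM in WT HFD, at 1.48, 2.09 and 1.01 TPM in Casp11-/- NCD and at 8.23, 1.94 and 8.51 TPM in Casp11-/- HFD, so that Casp11-/- HFD replicate 2 stayed at the chow level. The genes that fell in that fit were Esrra, the oestrogen-related receptor that drives mitochondrial genes (-1.09, adjusted p = 0.0343), and Ppargc1b, a coactivator related to Ppargc1a (-0.74, adjusted p = 0.0315). Ppargc1b was at 2.11, 1.93 and 1.22 TPM in WT NCD and at 1.21, 1.01 and 2.41 TPM in WT HFD. In Casp11-/- NCD it was at 3.75, 3.11 and 4.57 TPM and in Casp11-/- HFD at 1.01, 1.01 and 1.28 TPM, so that some HFD values lay at the floor. Esrra was at 8.44, 9.11 and 5.16 TPM in WT NCD, at 4.47, 2.54 and 5.75 TPM in WT HFD, at 13.2, 9.47 and 15.1 TPM in Casp11-/- NCD and at 4.96, 3.99 and 5.32 TPM in Casp11-/- HFD. Neither passed on the rescaled values (-0.51 and -0.31, adjusted p = 0.072 and 0.157). There 5 of the 15 rose and none fell (33.3%, beside the 13.6% of the protein-coding genes tested). The list was chosen with earlier results of these data known, so its shares in either fit describe the list alone. Added to Cd36 and Vnn1 were the fatty acid binding proteins Fabp1 (1.83, adjusted p = 0.0432), Fabp4 (1.69, adjusted p = 0.011) and Fabp5 (0.92, adjusted p = 0.0397), which were named after their values were seen.

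**Figure D4:**
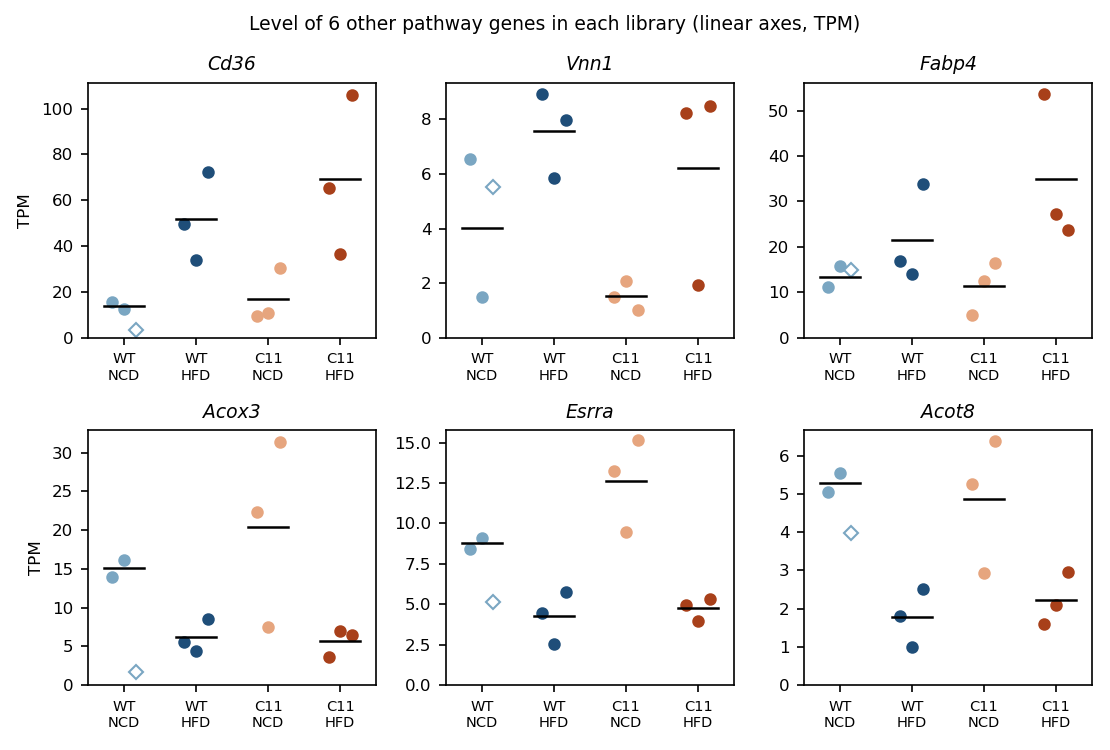
TPM per library in the 4 groups (C11, Casp11-/-) for 6 further oxidation and PPAR genes on linear axes, drawn as points with an open diamond for WT NCD replicate 3 and a line at the group mean without it. The 6 HFD libraries of Cd36 (33.8 to 106 TPM) lie above the 6 chow libraries (3.28 to 30.6 TPM).

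Markers of the cell types in the fraction were also compared between diets. Of all genes tested, 0.554% were called with 12 libraries, 8 higher and 100 lower on HFD. Without WT NCD replicate 3, 18.3% were called, 192 higher and 3097 lower. On the rescaled values 13.6% of the protein-coding genes tested were called, 914 higher and 771 lower. Of 12 Kupffer cell and macrophage markers 6 were higher on HFD with 12 libraries, 9 without WT NCD replicate 3 and 10 on the rescaled values, and their summed level was 85.4 to 608 TPM in the 5 remaining chow libraries and 351 to 1025 TPM in the HFD libraries. Of 6 B cell markers none was called with 12 libraries and all 6 were lower in both other fits, with sums of 418 to 1672 TPM on chow and 131.5 to 291 TPM on HFD. Of 6 NK cell markers 5 were lower without WT NCD replicate 3 (186 to 374 TPM against 53.7 to 100.4 TPM), and of 8 sinusoidal endothelial markers 5 were higher in that fit (170 to 728 TPM against 375 to 1822 TPM). Of 7 T cell markers 4 and of 5 tested erythroid markers 5 were lower there, and 1 of 6 tested stellate markers was lower there, while none of the monocyte and neutrophil markers was called in these fits. On the rescaled values 3 NK cell, 0 T cell and 4 erythroid markers were lower, and 7 endothelial and 2 stellate markers were higher. Cd36, Pdk4, Acaa1a and Acot2 moved with diet beside these markers, and the part of the markers' cell types in their changes was not tested.

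The 14 hepatocyte markers did not separate the diets. Their sum was 8189 to 29495 TPM in 5 chow libraries and 11457 to 24564 TPM in the HFD libraries, none of the 14 was called in the 3 fits, and none was at the floor in all 11 libraries. In WT NCD replicate 3 the sum was 106 TPM, with Alb at 6.46 TPM. Within chow the sum was highest in the 2 other WT libraries and in Casp11-/- NCD replicate 2. That last library held the highest Acaa1b (44.1 TPM), Acsl1 (55.4 TPM) and Ppara (15.9 TPM) of all 12, and its part in the spread of these 3 genes was not tested.

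**Figure D5:**
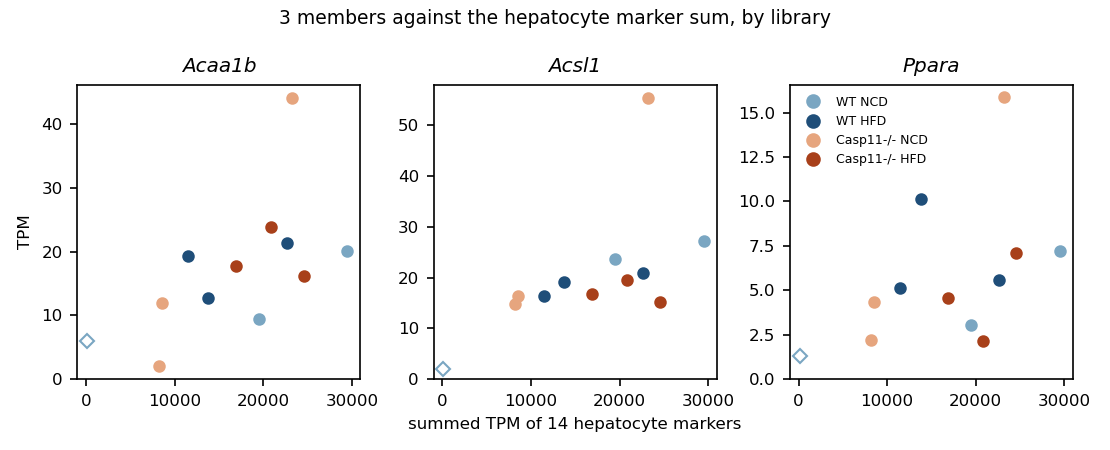
TPM of Acaa1b, Acsl1 and Ppara (vertical axes) against the summed TPM of 14 hepatocyte markers (horizontal axis), with 1 point for each library, coloured by group, and an open diamond for WT NCD replicate 3. Casp11-/- NCD replicate 2, with a marker sum of 23228 TPM, has the highest value of each gene (44.1, 55.4 and 15.9 TPM), and WT NCD replicate 3 lies at 106 TPM.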

How the data were processed

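Liver cell fractions of 12 mice were sequenced as total RNA with a stranded kit, in single reads of 75 bases. Per the labels and the study's methods, the authors aligned reads with STAR (version not stated) to mm10 (GRCm38.p6). They deposited TPM for each gene, with values at a floor of 1.01. The deposited column sums exceed the total that TPM has by definition, so the unit was recorded as a score. Read depth is not known from such values, and no counting interval can be given. Of each file, 6 rows without a gene name were dropped, which left 40840 genes. A gene was tested if 3 or more libraries exceeded the floor. Its log2(TPM + 1) values were fitted by limma 3.58.1 (R 4.3.3) over all 12 libraries and 4 groups with limma's trend option, two-sided, and called at a Benjamini-Hochberg adjusted p under 0.05 over all genes tested. Fold changes are on the log2(TPM + 1) scale, which understates those of low genes. The rescaled values set the protein-coding genes of each library (21698 genes by RefSeq) to one common total, and only protein-coding genes were tested on them. Other alternatives changed the filter, the pseudocount (0.1), the scaling, the spread and the libraries, or added a replicate block. The fit was tested on simulated data.

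Values in every library are given for the members of smallest p in each contrast, for those called with or without WT NCD replicate 3, and for Cpt1a, Ppara, Ppard, Ppargc1a and Pdk4. Acaa1b and Acsl1 lie outside this rule and are given in every library as well. The remaining members are given by range or count. Further pathway genes are named where called, except 1 that is not reported here. Members and lists were chosen with earlier results of these data known. Tables were handled with Python 3.11.15, pandas 2.3.3 and Biopython 1.88. Promoter windows are from RefSeq, and entries were matched for 31 genes, Acaa2, Decr1, Cpt1b, Crat and Hsd17b4 having none.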

Additional observations from a re-analysis of the deposited data

How the results depend on the processing

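The averaged diet comparison changed most with the processing. The count of the 34 genes called was 0 with 12 libraries, where 108 of 19498 genes passed. It was 1 of the 32 tested (Acot2) when genes had to be above the floor in every library, where 601 of 9728 passed. After rescaling of the protein-coding genes it was 1 (Pdk4), where 442 of 12793 passed. It was 3 after rescaling without WT NCD replicate 3, where 1685 of 12365 passed. With each library left out in turn it ran from 0 to 3. It was 3 without WT NCD replicate 3 (Acaa1a, Acot2 and Pdk4), where 3289 of 17950 genes passed. Without Casp11-/- NCD replicate 2 it was 2 (Acot2 and Pdk4), where 1454 of 19428 passed. In mice labelled Casp11-/- it was 1 after rescaling without WT NCD replicate 3, where 435 of 12365 genes passed. The other contrasts stayed at 0 under each alternative run. Over these alternatives the adjusted p of the averaged difference ran from 0.0036 to 0.451 for Pdk4, from 0.025 to 0.933 for Acot2 and from 0.0339 to 0.9998 for Acaa1a, and none of the 3 changed sign.

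Over all 34 genes, 13 averaged log2 differences changed sign after rescaling, 13 after rescaling without WT NCD replicate 3 and 18 with the 1% most abundant genes removed. Among the members named by the rule, those that changed sign after rescaling were Cpt1a (0.20), Eci2 (0.15) and Decr2 (0.34). After rescaling without WT NCD replicate 3 they were Eci1 (0.0101), Eci2 (0.0977), Acsl3 (0.0502) and Decr2 (0.49). With the 1% most abundant genes removed they were Cpt1a (0.51), Ppard (0.0514), Eci1 (0.34), Eci2 (0.51), Acads (0.37), Acsl3 (0.14) and Decr2 (0.75), and the WT difference of Acaa1a became 0.39. With single libraries left out, the sign of up to 6 of the 34 genes changed, and among those members the differences ran over ranges of -0.83 to 0.0455 for Cpt1a, -0.0021 to 0.60 for Ppara, -0.20 to 0.0444 for Decr2, -0.24 to 0.19 for Hadh and -0.20 to 0.16 for Etfa. The cause was not tested.

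The labels state no pairing of mice by replicate number. Deviations of same-numbered libraries from their group means correlated at -0.642 to 0.470, and 2 of 12 libraries correlated best with their own number. With 3 libraries in a group these correlations cannot exclude a pairing. With the replicate block, 0 of the 34 genes were called in each contrast. Groups of 3, one library that stands apart, TPM without counts, and the unequal share of noncoding RNA limit these results, and small differences of low genes near the floor could not be detected.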
